A study of Mus musculus with 6 samples.

Results

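The genes described here encode the machinery that licenses origins of DNA replication, fires them and copies the DNA at the fork. They are 50 genes named by their role, of which 49 had at least 1 probe set annotated to that gene alone among the 18193 genes named on the array, and the chromatin assembly gene Chaf1a had none. Each gene was read by its brightest probe set over the 6 arrays. All 49 lay above the filter on low signal and were among the 14680 genes tested. RNA came from sorted mouse bone marrow cells of 2 groups, 3 MLL-AF9/Mn1wt samples and 3 MLL-AF9/Mn1null samples. Both groups carried the leukaemia fusion MLL-AF9, a control vector for EGFP (a green fluorescent protein) and had grown in DMEM with serum and the cytokines mIL3, hIL6 and mSCF. They differed in Mn1, a transcriptional cofactor gene, which CRISPR-Cas9 had deleted in Mn1null. The comparison asks how transcripts of the replication machinery differed when Mn1 was deleted. The sources used here do not state how MLL-AF9 was delivered, whether each group was 1 clone or line, or whether the replicates were separate cultures. The p-values therefore rest on a spread between samples that may be no more than technical.

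Origins are licensed in G1, when the origin recognition complex, Cdc6 and Cdt1 load the ring-shaped MCM2-7 helicase onto them. In S phase the DDK kinase and cyclin-dependent kinases switch this ring on by adding Cdc45 and the GINS complex, and polymerases alpha, delta and epsilon then copy the opened strands with a sliding clamp, its loader and the single-strand binder RPA. Many of these genes are transcribed under E2F control as cells pass from G1 into S, so their transcripts are commonly read as a sign of proliferation in haematopoietic progenitors and leukaemia cells.

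Values are log2 signals, for which a difference of 1 is a doubling, and they support comparison of the same gene between arrays but not of levels between genes. Array medians lay between 5.17 and 5.23, and arrays of a group correlated at 0.997 or higher over the genes tested. The only Mn1 probe set read 4.49, 4.12 and 4.44 in Mn1wt and 4.21, 4.12 and 4.07 in Mn1null, close to the filter level of 4.07. The difference of -0.22 did not pass (limma adjusted p = 0.121) except without Mn1wt replicate 2 (-0.33, adjusted p = 0.00727), and where its probes lie with respect to the deletion was not stated, so it checks no label. The blood cell gene Ptprc was at 11.54 and 11.57 and the myeloid progenitor enzyme Mpo at 13.84 and 14.11 in Mn1wt and Mn1null. Mpo itself was called higher by limma (0.28, adjusted p = 0.00125). Of the 5 myeloid progenitor genes listed, 2 rose, 2 fell and 1 did not pass. The B cell and the T and NK cell lists had log2 mean signals of 4.75 to 5.36 over the arrays, and by limma 0 of 3 in each list passed (at an unadjusted p under 0.05, 1 B cell marker, Ebf1, and 0 T and NK cell markers did).

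The machinery of DNA replication was broadly lower in Mn1null, from origin licensing to the fork. By limma, with p-values adjusted over all genes and a threshold of 0.05, 46 of the 49 genes fell (93.9%), 1 rose and 2 did not pass. Across all genes tested, 25.6% fell and 23.2% rose, and among genes at least as bright as the dimmest of the 49 (Gins3), 39.0% fell. The 46 that fell also had all 3 Mn1null values below all 3 Mn1wt values, an arrangement that 30.1% of all genes showed. The shifts were moderate in size: the median difference was -0.52, against -0.0053 over all genes tested, and 3 genes (Gins1, Mcm10 and Orc1) fell at least 2-fold while 20 fell at least 1.5-fold. Of the 49 differences, 45 lay below the lower quartile of all genes (-0.20) and 13 below their lowest 5% (-0.68). In these bulk samples, fewer cells in S phase and less RNA per cell cannot be told apart.

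**Figure D1:**
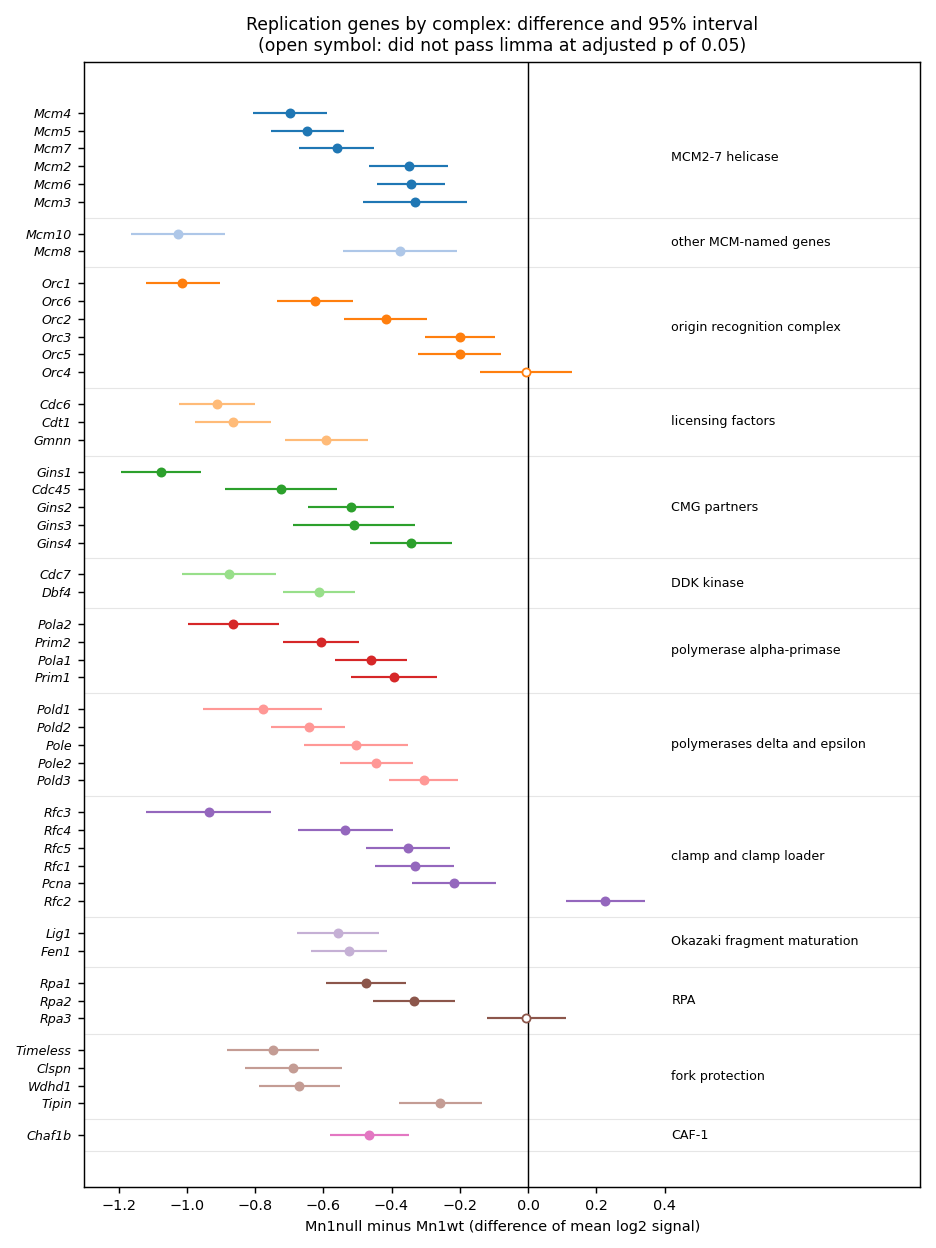
Difference of mean log2 signal, Mn1null minus Mn1wt, for 49 replication genes grouped by complex, with limma's 95% interval as a bar. The median of every complex lies left of 0, Rfc2 is the gene at the right (0.23), and the open symbols are Orc4 and Rpa3.

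**Figure D2:**
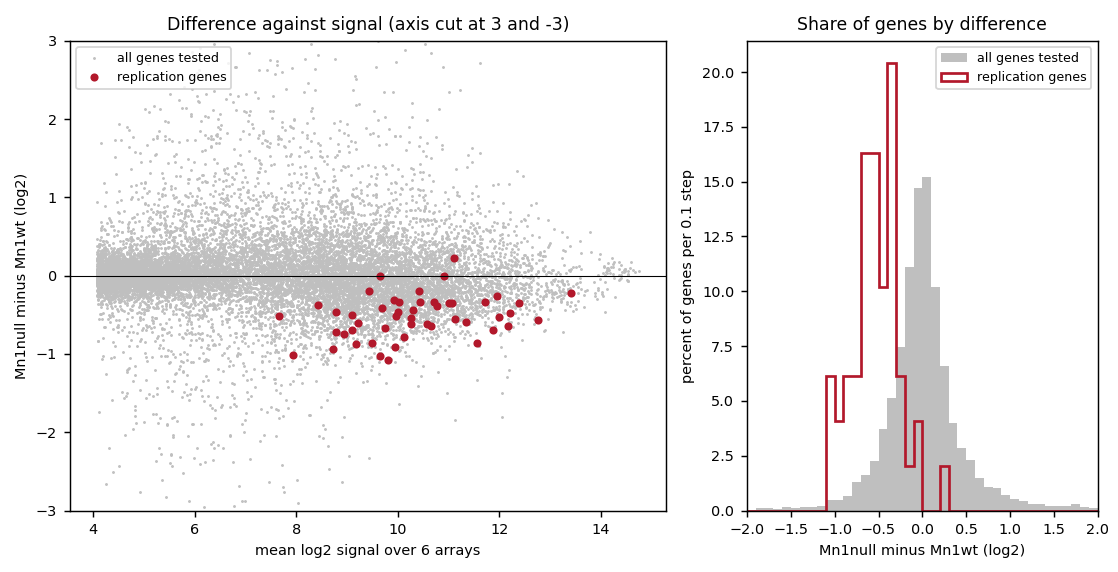
Left, the difference (Mn1null minus Mn1wt, log2) against mean log2 signal for 14680 genes in grey and 49 replication genes in red, with 91 genes of a difference over 3 in size outside the axis. Right, the percent of genes per step of 0.1, where the replication genes centre near -0.52 and all genes near 0.

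The decrease was seen on each array and did not rest on 1 sample. When each gene was set against its own mean over the 6 arrays, 47, 48 and 46 of the 49 genes lay above that mean on Mn1wt replicates 1, 2 and 3, and 2, 2 and 1 on the Mn1null replicates. The median deviation per array ran from 0.24 to 0.29 in Mn1wt and from -0.28 to -0.23 in Mn1null, so the groups did not overlap. Since 46 genes had all Mn1null values below all Mn1wt values, these figures describe that result by array and are no further support for it. The SD of a gene within a group was at most 0.141 (Gins3 in Mn1wt), with a median of 0.0446. The count of genes that fell was 45 or 46 when any 1 array was left out.

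**Figure D3:**
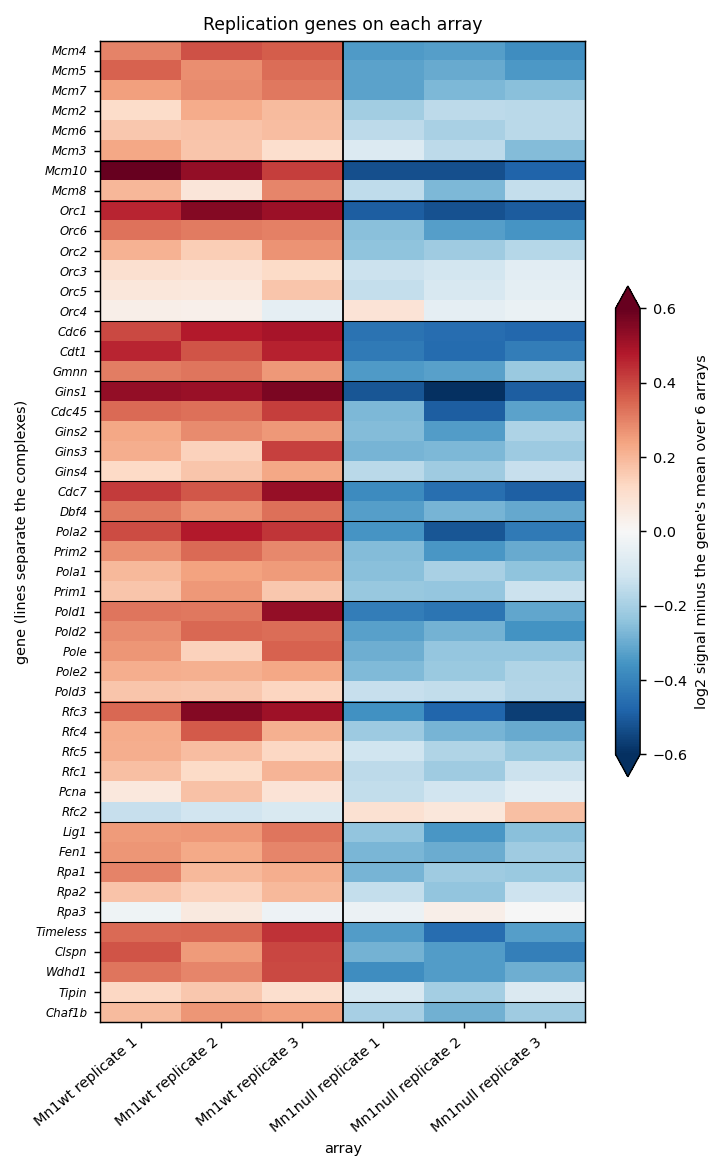
Log2 signal of 49 replication genes on the 6 arrays, each as its deviation from the gene's own mean, with lines between complexes. Mn1wt arrays are red and Mn1null arrays blue for nearly all genes, Rfc2 shows the opposite, and Orc4 and Rpa3 show no split.

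Other features of the samples moved with the groups. On the bacterial labelling controls (dap, lys, phe, thr) the difference was -0.85 for 5′ probe sets, where 8 of 8 did not overlap, -0.49 for middle ones and -0.30 for 3′ ones, against -0.09 for the hybridisation controls. Subtracting 5′ from 3′ signal gave a value 0.49 higher in Mn1null for pyruvate carboxylase and 0.27 higher for 18S rRNA, without overlap, while those of Gapdh, beta-actin and the transferrin receptor overlapped. For the marker counts that follow, the shares over all genes tested were 25.6% fallen and 23.2% risen. Among markers of cell types, 5 of 6 monocyte genes fell and 1 did not pass. The log2 of the mean signal of these 6 ranged from 10.25 to 10.33 over Mn1wt arrays and from 6.16 to 6.20 over Mn1null arrays. All 7 mast cell and basophil genes rose (9.27 to 9.30 against 11.43 to 11.47), and of 6 neutrophil genes 5 rose and 1 fell (8.80 to 8.91 against 10.13 to 10.19). Of 4 megakaryocyte genes 2 rose, 1 fell and 1 did not pass (7.37 to 7.50 against 9.61 to 9.80), and of 3 erythroid genes 2 rose and 1 fell (7.18 to 7.23 against 7.52 to 7.62). Of 5 myeloid progenitor genes 2 rose, 2 fell and 1 did not pass (13.13 to 13.16 against 13.15 to 13.17), of 5 pan-haematopoietic genes 1 rose, 1 fell and 3 did not pass, and of 5 stromal and endothelial genes 1 (Pecam1) rose and 4 did not pass. None of these markers was at 0, and the part of cell composition or labelling in the decrease of replication genes was not tested.

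The promoters of several of these genes are shown because the genes moved together and because E2F and the CCAAT-binding factor NF-Y are the known regulators of many S phase genes. RefSeq (GRCm38.p6) gave a promoter for 41 of the 50 genes. It gave none for Mcm4, Gins1, Gins2, Gins4, Gmnn, Prim2, Pole, Tipin and Rfc2. The gene with the lowest difference (Gins1) and the gene that rose (Rfc2) are therefore not covered. The 250 bases before each annotated start were searched on both strands. The letters were the E2F-type letters TTTCCCGC, TTTCGCGC, TTTGCCGC or TTTGGCGC, then CCAAT, and TTTGAA or TTTAAA of the cell cycle element CHR. The sequences run 5′ to 3′ along the gene's strand up to the base before its most upstream start in the table, with E2F-type letters and CCAAT (or ATTGG on the other strand) in capitals. Orc1 (chr4:108579204-108579453, plus strand), Mcm10 (chr2:5012792-5013041, minus strand), Cdc6 (chr11:98907901-98908150, plus strand) and Mcm5 (chr8:75109259-75109508, plus strand) are examples of genes that fell. Orc4 (chr2:48950235-48950484, minus strand) and Rpa3 (chr6:8259142-8259391, minus strand) are the genes that did not pass. These examples do not show how letters and falls go together. Of tested genes with a promoter, all 9 with E2F-type letters fell, and so did 29 of the 31 without them.
Orc1: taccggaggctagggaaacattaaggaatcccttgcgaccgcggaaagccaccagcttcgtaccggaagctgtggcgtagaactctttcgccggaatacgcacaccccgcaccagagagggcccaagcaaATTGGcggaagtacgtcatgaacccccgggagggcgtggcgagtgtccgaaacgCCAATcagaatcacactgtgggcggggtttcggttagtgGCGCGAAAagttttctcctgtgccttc
Mcm10: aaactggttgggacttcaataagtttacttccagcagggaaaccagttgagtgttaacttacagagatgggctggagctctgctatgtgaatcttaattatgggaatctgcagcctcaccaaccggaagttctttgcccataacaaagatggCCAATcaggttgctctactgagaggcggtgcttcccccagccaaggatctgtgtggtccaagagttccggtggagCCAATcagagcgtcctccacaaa
Cdc6: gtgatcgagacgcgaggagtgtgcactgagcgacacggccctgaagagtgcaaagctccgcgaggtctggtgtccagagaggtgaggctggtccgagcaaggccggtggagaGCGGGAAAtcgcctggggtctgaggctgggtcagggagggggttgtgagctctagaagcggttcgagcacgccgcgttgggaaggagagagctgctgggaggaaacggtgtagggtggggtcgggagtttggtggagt
Mcm5: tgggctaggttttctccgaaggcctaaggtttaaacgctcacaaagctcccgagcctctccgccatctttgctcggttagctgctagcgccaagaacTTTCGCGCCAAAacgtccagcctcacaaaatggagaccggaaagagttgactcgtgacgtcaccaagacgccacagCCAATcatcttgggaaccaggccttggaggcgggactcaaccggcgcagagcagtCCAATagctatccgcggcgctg
Orc4: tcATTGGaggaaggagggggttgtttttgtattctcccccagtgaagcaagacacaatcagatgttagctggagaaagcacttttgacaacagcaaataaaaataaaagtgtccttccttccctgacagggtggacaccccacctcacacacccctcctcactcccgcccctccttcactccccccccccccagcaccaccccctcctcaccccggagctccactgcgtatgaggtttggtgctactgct
Rpa3: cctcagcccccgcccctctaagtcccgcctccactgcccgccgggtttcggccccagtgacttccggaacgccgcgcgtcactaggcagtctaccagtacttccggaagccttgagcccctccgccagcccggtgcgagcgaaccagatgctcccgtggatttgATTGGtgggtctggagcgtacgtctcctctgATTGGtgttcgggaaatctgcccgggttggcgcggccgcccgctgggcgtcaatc

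As a description of letters and not of binding, E2F-type letters stood in 9 of the 41 promoters (22.0%), against 2.16% of the 27025 genes in the table and 3.53% of the 11790 of them tested on the arrays. The 9 genes were Mcm5, Mcm6, Mcm7, Orc1, Orc3, Cdc6, Gins3, Pola1 and Rfc3. In Mcm5 a match on each strand overlapped the other, in one run of capitals that begins 153 bases before the start, and in Orc1 the match lay 27 to 20 bases before the start. CCAAT stood in 24 of 41 (58.5%), against 37.5% of the genes in the table and 39.7% of those tested, and both kinds of letters in 7 (17.1%), against 0.966% and 1.57%. CHR letters stood in 8 (19.5%), against 28.1% and 21.1%. Mcm10, which fell 2.04-fold, and Rpa3, which did not pass, each had 2 CCAAT matches and no E2F-type letters in this window. Median differences were -0.56 for the 9 genes with E2F-type letters and -0.48 for the 31 tested genes without them, a difference that was not tested.

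Of the origin recognition complex, which marks the sites where replication can begin, 5 of 6 subunits fell; the exception was Orc4, and the median was -0.31. Orc1, the subunit whose amount is known to rise and fall with the cell cycle, read 8.40, 8.49 and 8.45 in Mn1wt and 7.44, 7.42 and 7.44 in Mn1null. The groups were far apart, and the difference of -1.01 ± 0.046 (SE) was a 2.02-fold fall (limma adjusted p = 4.81e-06). Orc6 fell by 0.62 and Orc2 by 0.42, and the smallest falls were those of Orc3 at -0.20 and Orc5 at -0.20, where Orc3 reversed to 0.23 on the probe set with the largest variance. Orc4, an ATPase subunit, read 9.68, 9.68 and 9.59 against 9.73, 9.59 and 9.61, which overlap, with a difference of -0.006 (95% interval -0.142 to 0.129). On the probe sets used, the subunits spanned differences from -1.01 to -0.006 within 1 complex, and differences between subunits were not tested. Both ends depended on the probe set. By limma over all probe sets, a dimmer one of Orc1 gave -0.20 (adjusted p = 0.0972). One of Orc4 gave -0.32 (adjusted p = 0.0146), and its remaining ones gave -0.038 and -0.075 and did not pass. Orc5 lost its call without Mn1null replicate 1 (-0.18, adjusted p = 0.058).

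The licensing factors all fell, with a median of -0.87. Cdc6, the ATPase that joins the origin recognition complex to load the helicase, read 10.35, 10.42 and 10.44 in Mn1wt and 9.51, 9.49 and 9.48 in Mn1null, a 1.88-fold fall of -0.91 ± 0.047 (SE, adjusted p = 8.61e-06). Cdt1, its partner in loading, read 12.02, 11.94 and 12.02 against 11.14, 11.10 and 11.15, a fall of -0.87 ± 0.047 (adjusted p = 1.12e-05). Geminin (Gmnn), the protein that holds Cdt1 inactive after S phase begins, read 11.65, 11.67 and 11.61 against 11.01, 11.02 and 11.12, a fall of -0.59 ± 0.051 (adjusted p = 9.1e-05). The loader genes and the inhibitor gene therefore fell together, and in each the Mn1null values lay wholly below the Mn1wt values. The 95% interval of Gmnn (-0.71 to -0.47) lay above those of Cdc6 (-1.02 to -0.80) and Cdt1 (-0.98 to -0.75), though the difference between the genes was not tested.

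The helicase ring itself fell in all 6 subunits, with a median of -0.46 and a narrow range. Mcm4 read 12.17, 12.26 and 12.24 in Mn1wt and 11.53, 11.54 and 11.50 in Mn1null, a 1.62-fold fall of -0.70 ± 0.046 (SE, adjusted p = 2.75e-05). Mcm5 (-0.65) and Mcm7 (-0.56) followed, and Mcm2 (-0.35), Mcm6 (-0.34) and Mcm3 (-0.33) fell least. Mcm6, the subunit with the tightest replicates, read 12.54, 12.55 and 12.57 against 12.22, 12.19 and 12.22, so even a 1.27-fold fall stood clear of the spread. Other probe sets above the filter level gave larger falls for Mcm3 (-0.51 to -0.65) and Mcm6 (-0.52), so the order of the subunits depended on the probe set. Mcm10, which bears the family name but acts in helicase activation and is no part of the ring, fell more, from 10.24, 10.17 and 10.06 to 9.12, 9.12 and 9.16, a 2.04-fold fall of -1.03 ± 0.058 (adjusted p = 1.38e-05). Mcm8, a relative with a known role in recombination repair, fell by 0.38.

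Of the partners that turn the ring into the active CMG helicase, all 5 fell, with a median of -0.52. Gins1 had the lowest difference of the 49 genes. It read 10.34, 10.33 and 10.38 in Mn1wt and 9.30, 9.21 and 9.31 in Mn1null, a 2.11-fold fall of -1.08 ± 0.049 (SE, adjusted p = 5.09e-06), and 1.97% of all genes tested had a lower difference. Its fellow GINS subunits fell less, Gins2 by 0.52, Gins3 by 0.51 and Gins4 by 0.34. Cdc45 read 9.12, 9.11 and 9.20 against 8.51, 8.28 and 8.46, a fall of -0.72 ± 0.069 (adjusted p = 0.000149). The 4 GINS proteins form 1 complex, and the differences of their transcripts ranged from -1.08 to -0.34. Gins4 had 1 probe set, and the others of the 5 had 2 each. The other probe sets gave -0.83 for Gins1 and -0.70 for Gins2, which fell by limma over all probe sets. Those of Gins3 (-0.26, adjusted p = 0.0712) and Cdc45 (-0.12, adjusted p = 0.216) did not pass, so the sizes depended on the probe set.

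Both genes of the DDK kinase, which phosphorylates the loaded ring to fire origins, fell. The catalytic subunit gene Cdc7 read 9.59, 9.54 and 9.69 in Mn1wt and 8.79, 8.72 and 8.68 in Mn1null, a 1.84-fold fall of -0.88 ± 0.058 (SE, adjusted p = 2.8e-05). The activating subunit gene Dbf4 read 10.90, 10.85 and 10.91 against 10.25, 10.30 and 10.28, a 1.53-fold fall of -0.61 ± 0.044 (adjusted p = 4.19e-05). Neither gene overlapped between the groups.

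All 9 polymerase and primase genes fell. In polymerase alpha-primase, which lays the RNA-DNA primers, the accessory subunit gene Pola2 fell most, from 9.89, 9.98 and 9.93 to 9.14, 8.99 and 9.08 (-0.86 ± 0.057, SE, adjusted p = 2.65e-05), followed by the primase subunit gene Prim2 (-0.61), the catalytic Pola1 (-0.46) and the primase subunit gene Prim1 (-0.39). The other probe set of Prim1 gave -0.66, so the place of Prim1 in this order depended on the probe set. In polymerase delta, the main lagging-strand enzyme, the catalytic Pold1 read 10.44, 10.44 and 10.65 against 9.70, 9.68 and 9.81, a 1.71-fold fall of -0.78 ± 0.074 (adjusted p = 0.000142), and its other probe set fell less (-0.34, adjusted p = 0.0107 over all probe sets). Pold2 fell by 0.64 and Pold3 by 0.31. In polymerase epsilon, the main leading-strand enzyme, Pole (-0.50) and Pole2 (-0.445) both fell. Medians were -0.53 for polymerase alpha-primase and -0.50 for polymerases delta and epsilon, and the difference between these groups of genes was not tested.

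The sliding clamp and its loader held the 1 gene that rose. Pcna, the clamp that tethers polymerases to DNA, read 13.48, 13.59 and 13.50 in Mn1wt and 13.27, 13.30 and 13.35 in Mn1null, a 1.16-fold fall of -0.22 ± 0.052 (SE, adjusted p = 0.0114). Only Orc3 and Orc5 fell by less among the 46 genes, and Pcna lost its call at a threshold of 0.01. Its mean signal was 13.41. Of the 5 loader subunits, Rfc3 fell most, from 9.08, 9.28 and 9.25 to 8.37, 8.26 and 8.17 (-0.94 ± 0.077, adjusted p = 7.37e-05). Rfc4 fell by 0.54 (0.89 on its other probe set), Rfc5 by 0.35 and the large subunit gene Rfc1 by 0.33, whose call was lost on the probe set with the largest variance (-0.32, adjusted p = 0.0922).

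Rfc2, a small subunit of the same loader, read 10.97, 10.99 and 11.01 in Mn1wt and 11.20, 11.17 and 11.28 in Mn1null. All 3 Mn1null values lay above the Mn1wt values, and the rise of 0.23 ± 0.049 (SE, 95% interval 0.11 to 0.34) was 1.17-fold (adjusted p = 0.00719). It passed under every alternative run, with 0.11 (adjusted p = 0.408) and 0.18 (adjusted p = 0.0645) on its other probe sets, which did not pass over all probe sets. Rfc2 and Rfc3 encode subunits of 1 pentamer, and their 95% intervals (0.11 to 0.34 and -1.12 to -0.75) did not meet.

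The genes that finish Okazaki fragments fell by nearly equal amounts. The flap nuclease gene Fen1 read 12.26, 12.22 and 12.28 in Mn1wt and 11.72, 11.70 and 11.78 in Mn1null (-0.52 ± 0.047, SE), and the DNA ligase gene Lig1 read 11.38, 11.39 and 11.45 against 10.89, 10.78 and 10.87 (-0.56 ± 0.051). Their adjusted p-values were 0.000106 and 0.000117. Neither gene overlapped between groups, and their 95% intervals overlapped each other.

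RPA, the trimer that coats single-stranded DNA, was split. The large subunit gene Rpa1 fell from 12.51, 12.41 and 12.43 to 11.93, 12.00 and 11.99 (-0.48 ± 0.050, SE, adjusted p = 0.000226), and Rpa2 fell by 0.33 (adjusted p = 0.0013). The smallest subunit gene Rpa3 read 10.88, 10.97 and 10.88 in Mn1wt and 10.87, 10.94 and 10.90 in Mn1null. These values overlap, and the difference of -0.005 has a 95% interval of -0.12 to 0.11 (adjusted p = 0.95), which does not reach the falls of Rpa1 or Rpa2. Rpa3 was read by 1 probe set.

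The fork protection genes fell, with a median of -0.68. Timeless and Tipin, whose proteins pair at the fork, fell by unequal amounts. Timeless read 9.29, 9.29 and 9.38 in Mn1wt and 8.62, 8.49 and 8.62 in Mn1null (-0.75 ± 0.057, SE, adjusted p = 5.02e-05), and Tipin read 12.08, 12.12 and 12.06 against 11.86, 11.76 and 11.87 (-0.26 ± 0.051, adjusted p = 0.0049). Claspin (Clspn), the adaptor that passes the checkpoint signal to Chk1, fell by 0.69, and Wdhd1, which links the helicase to polymerase alpha, fell by 0.67. Chaf1b, a subunit of the CAF-1 chaperone that puts histones on new DNA, read 8.98, 9.05 and 9.03 against 8.59, 8.50 and 8.58 (-0.47 ± 0.049, adjusted p = 0.000231).

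Other probe sets of the same genes gave a check that did not enter the choice of gene. Above the filter level there were 48 of them, for 33 genes, of which 35 fell, 1 rose and 12 did not pass; of all probe sets above that level, 19.9% fell. Of the 46 genes that fell, 31 had such further probe sets, and for 24 of these every one fell. The exceptions were Orc1, Orc3, Cdc45, Gins3, Prim2, Rfc1 and Chaf1b. Orc1 gave -0.20 (adjusted p = 0.0972) on a dimmer probe set in place of -1.01, and Rfc1 gave 0.013 (adjusted p = 0.907) on a bright one. Orc3 gave -0.052 (adjusted p = 0.606) and 0.23 (adjusted p = 0.0457) on its other probe sets, so its direction depended on the probe set. Orc4 fell on 1 of its other 3, by 0.32 (adjusted p = 0.0146). A further 5 probe sets lay under the filter level and 0 of them passed by limma, with 1, of Mcm6, at an unadjusted p under 0.05.

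**Figure D4:**
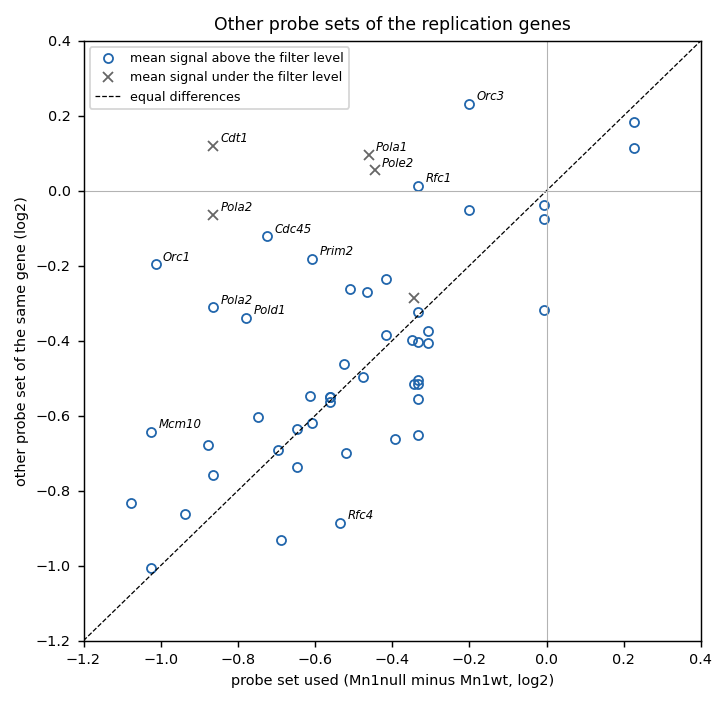
Difference (Mn1null minus Mn1wt, log2) of each other probe set of a replication gene against that of the probe set used, with a dashed line where both are equal. Most points lie below 0 on both axes, Orc3 has a point at -0.20 and 0.23, and crosses mark probe sets under the filter level.

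Genes of the same pathway outside the 50, and 6 general proliferation markers counted with them, moved the same way for the most part. Of these 45 tested genes, 37 fell (all 6 proliferation markers among them), 2 rose and 6 did not pass. Their median difference was -0.38. Across all genes tested, 25.6% fell and 23.2% rose, and 39.0% of genes at least as bright as Gins3 fell. The lists of these genes were chosen with earlier results of these data known. Of the regulators of origin firing and the helicase, 7 of 8 fell and 1 did not pass. Donson, a replisome factor, fell by 0.90 (adjusted p = 5.9e-06) and Rif1, which restrains origin firing, by 0.71 (adjusted p = 5.99e-05). All 8 replication checkpoint genes fell, among them the kinase gene Chek1 by 0.83 and the clamp gene Hus1 by 0.56 (-0.41, adjusted p = 0.0684, on the probe set with the largest variance). The weakest calls were those of Atrip (-0.18, adjusted p = 0.0449), lost without any 1 of the 6 arrays (0.0511 to 0.128), and Wee1 (-0.16, adjusted p = 0.0381), lost without any 1 array but Mn1null replicate 2 (0.0571 to 0.114). With its probe sets averaged, Wee1 differed by only -0.019 (adjusted p = 0.753). All 6 genes of chromatin and methylation behind the fork fell, such as Uhrf1, which recruits the maintenance methyltransferase, by 0.99 and the histone chaperone gene Nasp by 0.80. All 6 proliferation markers fell, with Ccne1 (cyclin E1) at -0.99 and Ccna2 (cyclin A2) at -0.90; Cdk2 (-0.23) lost its call with its probe sets averaged (-0.13, adjusted p = 0.117). Of 6 alternative clamp loader and cohesion genes 4 fell and 2 did not pass, with Dscc1 at -1.04 and Atad5 at -0.69. The call of Esco2, an acetyltransferase of cohesion (-0.38), did not hold with its probe sets averaged (-0.19, adjusted p = 0.292) or on the probe set with the largest variance (0.008, adjusted p = 0.979). Of 3 topoisomerase genes, Top2a (-0.38) and Top1 (-0.18) fell, but Top1 gave 0.021 (adjusted p = 0.751) with its probe sets averaged and 0.18 (adjusted p = 0.214) on the probe set with the largest variance. Top2b did not pass (0.10, adjusted p = 0.222), but was called higher with its probe sets averaged (0.28, adjusted p = 0.00347), on the probe set with the largest variance (0.46, adjusted p = 0.000776) and, at 0.16 (adjusted p = 0.0484), when Mn1null replicate 3 was left out. Atrip, Wee1, Cdk2, Esco2 and Top2b were named for these changes after their values were seen.

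Accessory subunits and nucleases were mixed, with 4 of 8 fallen, 2 risen and 2 not passed. Exo1, a nuclease of repair and flap removal, fell by 0.91 and the RNase H2 subunit gene Rnaseh2a by 0.36. Pole3 (-0.18) lost its call when Mn1wt replicate 1, Mn1wt replicate 3 or Mn1null replicate 1 was left out (adjusted p = 0.0519 to 0.0762), and Rnaseh2c (-0.13, adjusted p = 0.0756) passed as lower under 5 alternatives, with -0.35 on the probe set with the largest variance; both were named after their values were seen. Pold4, the smallest subunit of polymerase delta, read 8.63, 8.69 and 8.91 in Mn1wt and 9.84, 9.71 and 9.93 in Mn1null, with no overlap, and rose by 1.09 (adjusted p = 7.87e-05) while Pold1, Pold2 and Pold3 fell. Dna2, a nuclease of long flaps, read 10.77, 10.71 and 10.74 against 11.01, 11.09 and 11.05 and rose by 0.31 (adjusted p = 0.00128). Pold4 had 1 probe set, and Dna2 had others at 0.46 and 0.14, of which the first passed.

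**Figure D5:**
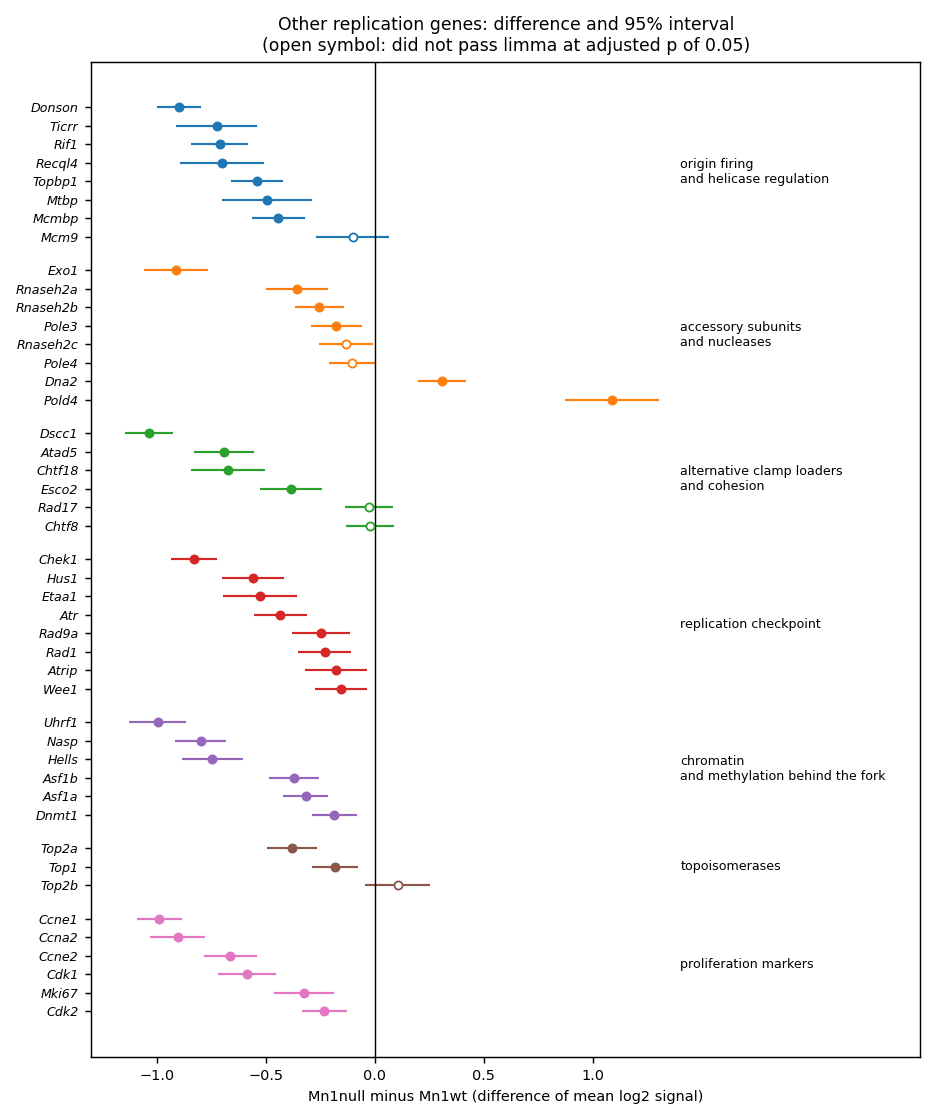
Difference of mean log2 signal, Mn1null minus Mn1wt, with limma's 95% interval, for 45 genes outside the 50, grouped by role. They are replication genes and 6 proliferation markers. Most lie left of 0, while Pold4 (1.09) and Dna2 (0.31) lie to the right, and open symbols did not pass.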

How the data were processed

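Total RNA of 3 Mn1wt and 3 Mn1null samples was labelled with biotin and hybridised to one-colour Affymetrix mouse arrays, per the labels. The deposited values are log2 signals per probe set; per the submitters' processing notes the authors used RMA. This method quantile-normalizes arrays, so a difference in total RNA per cell is removed. It also compresses differences between samples at low signals, so differences of dim probe sets are understated. The sources used here give no version. Of 45101 probe sets, 64 controls were left out of tests and 34945 named 1 gene. Each gene was its probe set with the highest mean, and 3513 genes under the 30th percentile of signal were left out. Groups were compared with limma 3.58.1 in R 4.3.3 as Mn1null minus Mn1wt (2-sided), and p-values were adjusted by Benjamini-Hochberg over all genes tested. For further probe sets the same model ran over all non-control probe sets. On simulated data for this comparison (14680 genes) the steps recovered 24% of differences of 0.25, 90% of differences of 0.5 and 94% of those of 1, and 13 of 167 calls were false. The simulation changed only 50 genes of each size, whereas 25.6% of genes fell and 23.2% rose in the data. The adjustment is stricter when few genes change, so these rates do not carry over to the data. Sample groups and numbers come from the titles. The members, lists and motifs were chosen with earlier results of these data known, and all members could be named; outside them the rule named Mn1, cell type markers by list, and up to 2 genes per direction of each replication list with the smallest p among those that passed. Atrip, Wee1, Cdk2, Esco2, Top2b, Pole3 and Rnaseh2c fall outside this rule. Alternatives were other probe set rules, filters, normalizations and models, a stricter threshold, each array left out and, added after seeing the data, probe sets for 1 transcript only. The number of arrays limits the precision.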

Additional observations from a re-analysis of the deposited data

How the results depend on the processing

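Of the 49 replication genes tested, 44 kept their direction and their side of the threshold under each of the 17 alternatives that gave them a value; 5 of these 44 (Mcm7, Cdc6, Cdc7, Pole and Fen1) had none with probe sets for 1 transcript only, which leaves 39 under all 17. The count that fell ranged from 42 (probe sets for 1 transcript only, with 44 genes tested) to 46, and it was 46 with the replicate number as a block. Same-numbered arrays showed no visible shared deviation (correlations -0.039, 0.109 and 0.080), and differently numbered ones ranged from -0.216 to 0.143. With 3 arrays per group, this cannot decide whether equal numbers mark paired samples. The block changed no call among the 49. Of the other replication genes and proliferation markers tested, it lost Atrip (adjusted p = 0.0943). Of those 45 genes, 32 to 38 fell under the alternatives, against 37. The probe set with the largest variance gave 2 genes that rose in place of 1, since Orc3 turned to 0.23 (adjusted p = 0.0242). The causes were not tested. The same setting raised Orc4 past the threshold (-0.32) and lost Rfc1 (adjusted p = 0.0922). The mean of probe sets lost Orc3 (-0.007, adjusted p = 0.91), a threshold of 0.01 lost Orc5 and Pcna, and Orc5 was also lost without Mn1null replicate 1. The median difference over the genes was -0.49 with the mean of probe sets, -0.56 with the probe set with the largest variance and -0.49 with quantile normalization, and -0.51 to -0.54 with 1 array left out. The medians of all 13 complexes were below 0 under every alternative run. Signals near the filter level of 4.07 limit what the dimmest further probe sets can show. Some that disagreed with the probe set used lay well above that level. Examples are those of Rfc1 (means of 9.94 in Mn1wt and 9.95 in Mn1null) and Orc3 (6.99 and 7.22).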
